A study of Mus musculus with 6 samples.

Results

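Cytochrome P450 enzymes are heme proteins that insert oxygen into lipids, sterols, retinoids, drugs and other foreign compounds. Most draw electrons from cytochrome P450 reductase in the endoplasmic reticulum or from ferredoxin in mitochondria. In the kidney they are found mainly in the proximal tubule, where the CYP4A and CYP4F enzymes hydroxylate fatty acids and the CYP2C and CYP2J enzymes make epoxides of arachidonic acid, and in mice the level of many of them differs between males and females.

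The genes were chosen by symbol, as Cyp followed by a family number, a subfamily letter and a gene number. Of 46095 rows in the count table, 95 matched. Cyp24a1 and Cyp27b1, which belong to vitamin D metabolism, were left out, 43 genes had fewer than 10 counts summed over all libraries (31 of the 95 had 0), and 50 genes remained. The filter on low counts left 39 of the 50 for testing, and the other 11 never exceeded 35 counts, or 1.97 CPM (counts scaled to library size), in a library. Of the 39, Cyp4f15 alone reached the filter's level in every library of 1 group (VHL-KO) and not in every library of the other.

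The libraries were made from RNA of primary renal tubular epithelial cells (PTECs), freshly isolated from 10-week-old mice. Both groups carried a Cre recombinase driven by the Cdh16 (Ksp) promoter, which is active in tubular epithelium, and floxed Vhl alleles. The VHL-KO group (3 libraries, replicates 1, 2 and 4) lacked Vhl alone, and the VHL-KO;SETD2-KO group (3 libraries, replicates 2, 3 and 4) also carried floxed Setd2, the gene of the enzyme that adds the third methyl group to lysine 36 of histone H3. There was no group with both genes intact, so every difference described here is between genotypes that both lack Vhl. Cells in which Cre was not active were not separated from the others by the labels. Cdh16 itself is among the thick limb and distal tubule markers used below. Cre activity in proximal tubule cells was not measured here, so P450 values cannot be assigned to cells with the deletions. Each library was taken as a separate mouse, as the study describes its groups, although the labels do not tie libraries to mice.

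Depth was 11168552 to 17883466 counts per library. Setd2 itself went against the labels, with 132 to 1179 counts per VHL-KO library and 1019 to 1499 per VHL-KO;SETD2-KO library. The counts cover whole genes, so a deleted exon would not show in them, and genotypes below are those of the labels. A pair of libraries stood apart, and these are called the doubtful libraries below. VHL-KO replicate 4 had a Spearman correlation of 0.717 to 0.765 with every other library across genes, the fewest Setd2 counts and 11.3% of its counts on mitochondrial genes against 25.9% to 36.4% elsewhere. VHL-KO;SETD2-KO replicate 3 had 11704 counts of Xist, the RNA of the inactive X chromosome, and 1 count over 4 Y-linked genes, whereas the other 5 libraries had at most 4 Xist counts and 260 to 3283 Y-linked counts. The labels give no sex, but by these counts VHL-KO;SETD2-KO replicate 3 was female and the other 5 libraries were male. Sex was therefore not balanced between the groups, with the only female library in VHL-KO;SETD2-KO. Results are given with and without these libraries where they matter.

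Per-library values below are in CPM scaled with trimmed mean of M-values factors, in the order VHL-KO replicates 1, 2 and 4, then VHL-KO;SETD2-KO replicates 2, 3 and 4. Differences are log2 fold changes of VHL-KO;SETD2-KO over VHL-KO.

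P450 transcripts were less abundant as a group in the VHL-KO;SETD2-KO libraries. The 50 genes summed to 9261, 9807 and 19439.8 CPM in the VHL-KO libraries and 4500.3, 4148 and 4816 CPM in the VHL-KO;SETD2-KO libraries, which is 12836 ± 5725 against 4488 ± 334 CPM (SD, n = 3), a log2 ratio of -1.52. There was no overlap between groups, VHL-KO replicate 4 was about as high as the other VHL-KO libraries added together, and the VHL-KO;SETD2-KO libraries lay close to each other. The ratio of the group means was 0.35 with all libraries, 0.363 without VHL-KO;SETD2-KO replicate 3, 0.471 without VHL-KO replicate 4 and 0.489 without both.

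**Figure D1:**
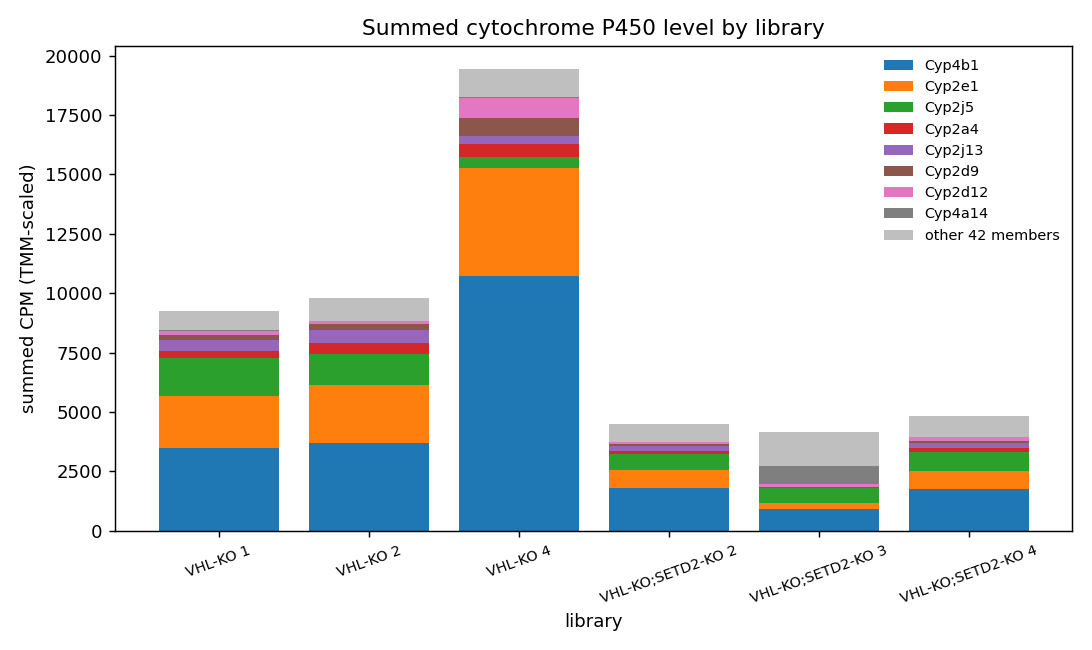
Stacked bars of the summed CPM of the 50 cytochrome P450 genes in each library (x axis, library; y axis, summed TMM-scaled CPM), with 8 genes in colour and the other 42 in light grey. The 3 VHL-KO bars reach 9261 to 19440 CPM and the 3 VHL-KO;SETD2-KO bars 4148 to 4816 CPM; Cyp4b1 (blue) and Cyp2e1 (orange) shrink most, and Cyp4a14 (dark grey) is visible in VHL-KO;SETD2-KO replicate 3 only.

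A few genes made up most of this sum. Cyp4b1, Cyp2e1 and Cyp2j5 together held 78.7%, 75.8% and 80.9% of P450 counts in the VHL-KO libraries and 72%, 43.0% and 68.9% in the VHL-KO;SETD2-KO libraries, so that VHL-KO;SETD2-KO replicate 3 was the library with the lowest share. The other 47 genes summed to 1977, 2372 and 3721 CPM in the VHL-KO libraries and 1261, 2363 and 1499 CPM in the VHL-KO;SETD2-KO libraries, a log2 ratio of -0.66 with overlapping groups. Per kilobase of exon, mean VHL-KO levels ran from 2645 CPM for Cyp4b1 through 1415 for Cyp2e1, 479.5 for Cyp2j5 and 251 for Cyp2a4 to 148 for Cyp2d9. In the VHL-KO;SETD2-KO libraries Cyp2j5 stood at 297 CPM per kilobase, Cyp2e1 at 274 and Cyp4b1 at 661, so Cyp2j5 and Cyp2e1 exchanged places on this scale, by less than the spread between replicates.

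The sum of proximal tubule markers moved with the P450 sum. The 15 proximal tubule markers, which include the endocytic receptors Lrp2 and Cubn and the phosphate transporter Slc34a1, summed to 24494, 23326 and 33635 CPM in the VHL-KO libraries and 10139, 12539 and 11809 CPM in the VHL-KO;SETD2-KO libraries. The sums did not overlap, and 7 of the 15 had non-overlapping lower values on their own, against 11% of all 14611 genes tested. The other markers overlapped, among them Lrp2 and Cubn, and Slc5a12 was fitted higher, at a log2 fold change of 0.50. In VHL-KO replicate 4, Slc34a1 alone held 14181 CPM of the sum, whereas Lrp2 had its lowest value there, 938 CPM. The P450 sum divided by this marker sum was 0.378, 0.42 and 0.578 in the VHL-KO libraries and 0.444, 0.331 and 0.408 in the VHL-KO;SETD2-KO libraries, that is 0.459 ± 0.105 against 0.394 ± 0.0578 (SD, n = 3), with overlapping groups. On this scale, chosen after the values were seen, the log2 ratio of group means was -0.22 in place of -1.52. In bulk RNA a smaller share of proximal cells and less P450 RNA per proximal cell cannot be told apart.

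**Figure D2:**
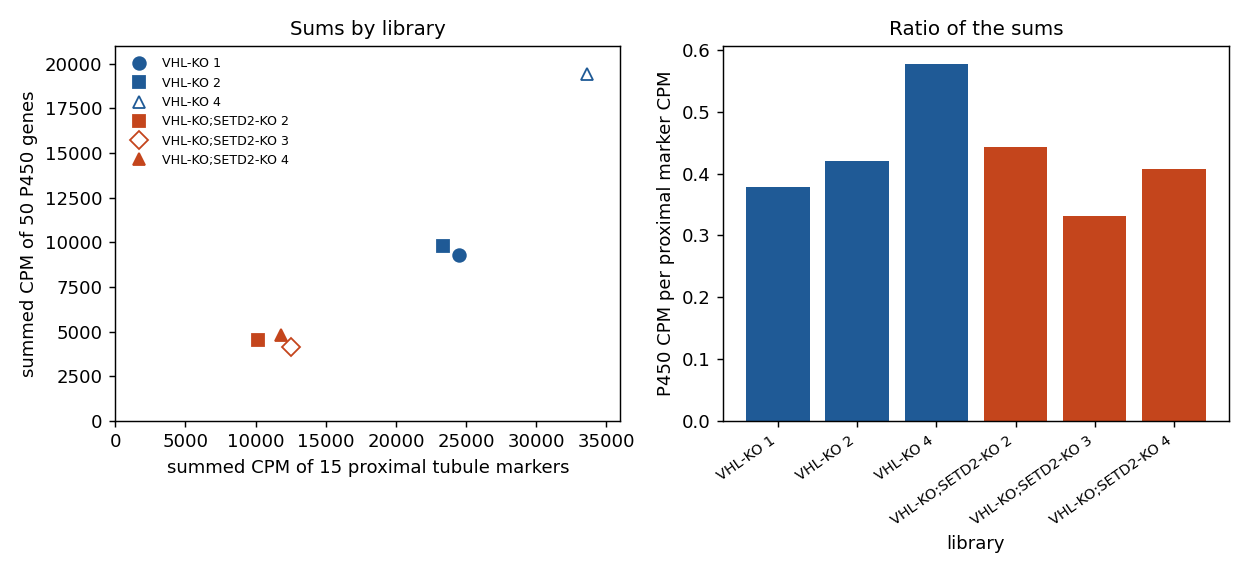
Left, summed CPM of the 50 P450 genes (y axis) against summed CPM of 15 proximal tubule markers (x axis), 1 point per library; right, bars of their ratio per library. Both sums are lower in the 3 VHL-KO;SETD2-KO libraries (orange) than in the 3 VHL-KO libraries (blue), while the ratios, 0.378 to 0.578 and 0.331 to 0.444, overlap.

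Markers of other cell types were read too, and the sums of each list below overlapped between groups. Podocyte markers (8 genes) summed to 1558 to 2417 CPM in VHL-KO and 2168 to 5250.1 CPM in VHL-KO;SETD2-KO. Of these, 8 of 8 were fitted higher, against 7374 of all 14611 genes, and 4 of 8 passed an unadjusted p of 0.05, against 2.66% of all genes. Endothelial markers (8 genes) summed to 1459.6 to 1927 CPM in VHL-KO and 1518 to 4523 CPM in VHL-KO;SETD2-KO. Of these, 7 of 8 were fitted higher and 0 passed an unadjusted p of 0.05, against the same shares of all genes. In both lists VHL-KO;SETD2-KO replicate 3 was close to the VHL-KO libraries while replicates 2 and 4 were high. Thick limb and distal tubule markers (10 genes) summed to 2133 to 7150.1 CPM in VHL-KO and 2387 to 5951 CPM in VHL-KO;SETD2-KO, collecting duct markers (10 genes) to 61.8 to 586 CPM in VHL-KO and 104 to 352 CPM in VHL-KO;SETD2-KO, stromal markers (8 genes) to 82.00 to 538 CPM in VHL-KO and 90.2 to 207 CPM in VHL-KO;SETD2-KO, and macrophage and immune markers (8 genes) to 166 to 765 CPM in VHL-KO and 153 to 360.1 CPM in VHL-KO;SETD2-KO, all with overlapping groups. Of 6 adrenal cortex markers, which would mark a gland rich in steroid-making P450 enzymes, 3 (Nr5a1, Mc2r and Hsd3b1) were under 1 CPM in all 6 libraries, and Mc2r was at 0. No marker in the other lists was at 0 throughout. The part of these lists in the P450 differences was not tested.

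Gene by gene, no P450 gene was called with all 6 libraries at an adjusted p under 0.05 and a change of at least 1.5-fold in edgeR's quasi-likelihood test; the lowest adjusted p was 0.625. Over all 14611 genes tested that rule called 1 gene, a background of 0.00684%. With an unadjusted p under 0.05, 4 of the 39 P450 genes were higher in VHL-KO;SETD2-KO (Cyp4a14, Cyp26b1, Cyp4v3 and Cyp20a1), against a background of 2.66% of all genes, and 8 of 39 were lower (Cyp2d9, Cyp4f15, Cyp2e1, Cyp2a4, Cyp4b1, Cyp2a5, Cyp2f2 and Cyp7b1), against 4.68%. Cyp4f15 reached the filter's level in every library of VHL-KO only, the group where it was higher, so the filter favoured its lower call. Limma-voom called 0 at an adjusted p. DESeq2, the tool the study used for its own comparison, called 1 higher (Cyp26b1), with a background of 0.00684%, and 4 lower (Cyp2a4, Cyp2d9, Cyp2e1 and Cyp4b1), with a background of 0.342%. The median log2 fold change was -0.40 over the 39 genes and 0.0095 over all genes tested. Of the 39, 25 were fitted lower and 14 higher, against 7237 and 7374 of all 14611 genes.

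The 3 libraries of each group did not overlap for 13 of the 39 genes. Of these, 4 were higher in VHL-KO;SETD2-KO (Cyp26b1, Cyp20a1, Cyp4v3 and Cyp39a1), against a background of 9.62% of all genes, which is about the share seen here. The other 9 were lower (Cyp2a4, Cyp2a5, Cyp2d9, Cyp2e1, Cyp2f2, Cyp2j13, Cyp4b1, Cyp4f15 and Cyp7b1), against a background of 11%. Here too the filter favoured Cyp4f15 being counted as lower. With each gene taken per proximal marker CPM, 3 genes were still lower without overlap (Cyp2a5, Cyp2d9 and Cyp2e1), against a background of 0.329%, and 12 were higher, against a background of 63.6%.

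The pair of libraries that stood apart changed these counts. Without VHL-KO;SETD2-KO replicate 3, 1 gene was higher (Cyp26b1) and 6 were lower at an unadjusted p under 0.05, with backgrounds of 2.37% and 2.2%, and the median log2 fold change was -0.81. Without VHL-KO replicate 4, 5 were higher and 11 lower, with backgrounds of 8.29% and 7.15%, and the median was -0.19. Without both, which left 2 libraries against 2, 38 P450 genes were tested and 3 were called higher (Cyp20a1, Cyp26b1 and Cyp2d22) and 13 lower at an adjusted p under 0.05 in edgeR. The backgrounds there were 8.9% and 7.9%, against 0.00684% in either direction with all 6 libraries. The libraries left out were picked because they stood apart in these same data. Adjusted p values without both libraries, here and below, therefore do not include the spread that those libraries brought. The genes called lower were Cyp2a4, Cyp2a5, Cyp2c44, Cyp2d9, Cyp2e1, Cyp2j5, Cyp2j9, Cyp2j11, Cyp2j13, Cyp4a10, Cyp4a31, Cyp4b1 and Cyp7b1.

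**Figure D3:**
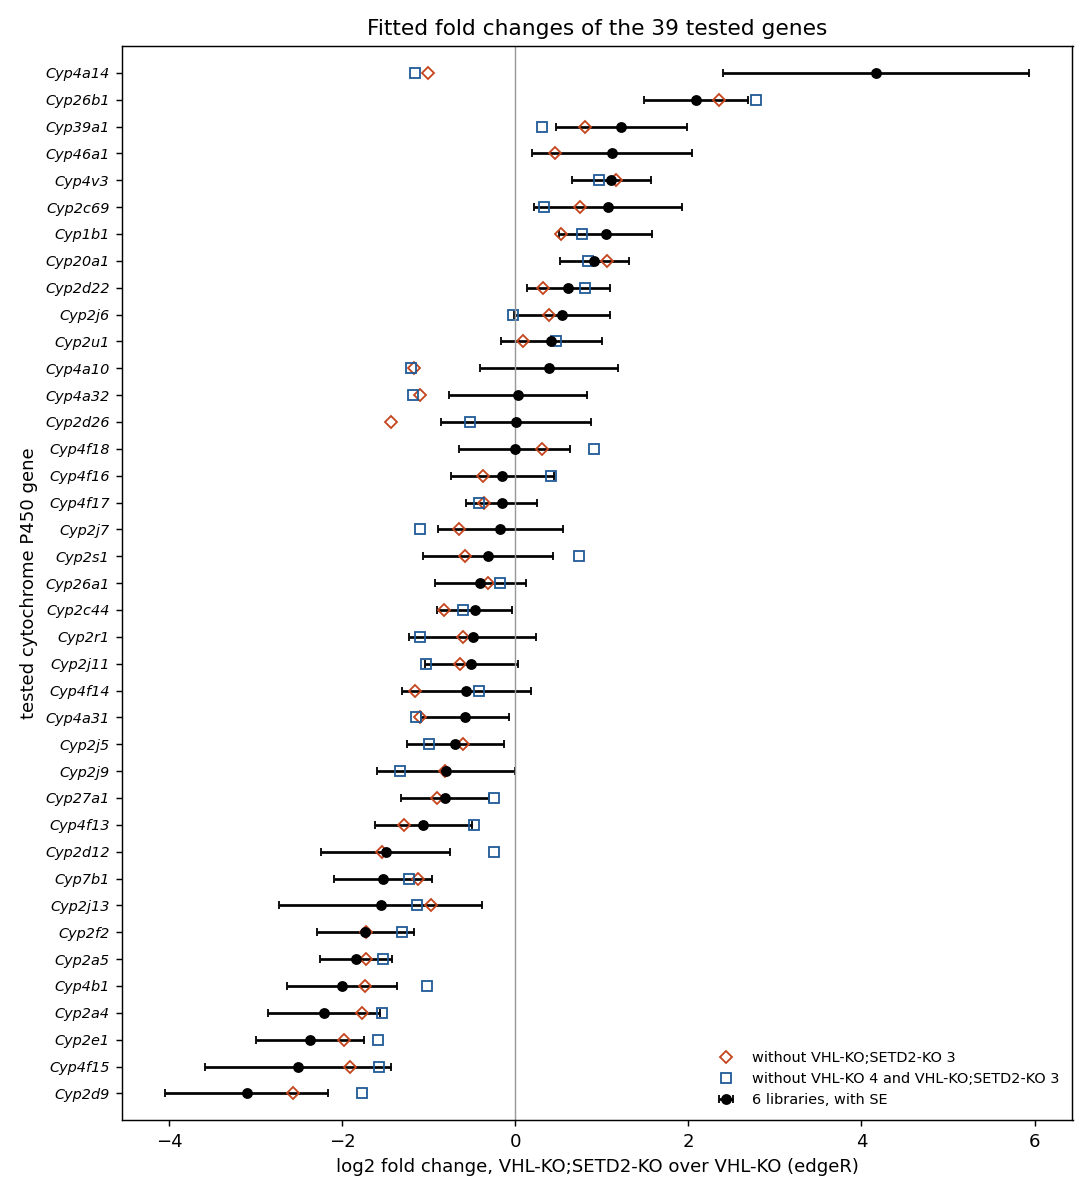
Log2 fold change of VHL-KO;SETD2-KO over VHL-KO (x axis, edgeR) for each of the 39 tested P450 genes (y axis). Black points with bars show the value and its SE with 6 libraries, open diamonds the value without VHL-KO;SETD2-KO replicate 3, and open squares the value without that library and VHL-KO replicate 4; Cyp4a14, at 4.17 with all libraries, moves to -1.01 and -1.16.

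The most abundant P450 gene was Cyp4b1, whose enzyme hydroxylates medium-chain fatty acids and activates some plant furans and aromatic amines (chr4:115624698-115647721, minus strand; positions here are RefSeq annotation on GRCm38.p6). It had 3488, 3686 and 10731 CPM in the VHL-KO libraries and 1813, 926 and 1738 CPM in the VHL-KO;SETD2-KO libraries. VHL-KO replicate 4 held close to 3 times the level of its group's other libraries, and the groups did not overlap. The log2 fold change was -2.0 (SE 0.63, adjusted p = 0.625, edgeR), and it was -1.27 without VHL-KO replicate 4 and -1.01 without both libraries (adjusted p = 0.00743, edgeR).

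Cyp2e1, which oxidises ethanol, acetone and other small molecules, had 2173, 2432 and 4555 CPM in the VHL-KO libraries and 742, 241 and 790.3 CPM in the VHL-KO;SETD2-KO libraries (chr7:140763819-140774990, plus strand). Each VHL-KO library was more than 2-fold above the highest VHL-KO;SETD2-KO library, and replicate 3 was the lowest of all. Its log2 fold change was -2.37 (SE 0.62, adjusted p = 0.625, edgeR). Without both doubtful libraries the value was -1.59 (adjusted p = 0.00597, edgeR). Per 1000 CPM of proximal tubule markers Cyp2e1 stood at 88.7, 104 and 135 CPM in VHL-KO and at 73.2, 19.2 and 66.9 CPM in VHL-KO;SETD2-KO, again without overlap.

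The promoters of these abundant genes are shown because they hold the largest shares of the P450 sum and were lower without overlap. Each line gives the 250 bases before the annotated start, 5′ to 3′ on the gene's strand, from RefSeq on GRCm38.p6. In Cyp2e1 (chr7:140763569-140763818, plus strand) capitals mark the hypoxia response core ACGTG, read here on the opposite strand. In Cyp4b1 (chr4:115647722-115647971, minus strand) they mark a STAT5 motif, TTCNNNGAA. VHL loss stabilises hypoxia-inducible factors, and STAT5 carries growth hormone signals to sex-dependent P450 genes in liver, which is why these letters were searched.
Cyp2e1: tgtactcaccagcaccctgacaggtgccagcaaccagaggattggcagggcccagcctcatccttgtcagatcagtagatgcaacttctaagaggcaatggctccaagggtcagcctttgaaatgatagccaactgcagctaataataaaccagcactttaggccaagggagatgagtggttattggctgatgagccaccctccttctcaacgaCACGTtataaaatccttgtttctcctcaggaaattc
Cyp4b1: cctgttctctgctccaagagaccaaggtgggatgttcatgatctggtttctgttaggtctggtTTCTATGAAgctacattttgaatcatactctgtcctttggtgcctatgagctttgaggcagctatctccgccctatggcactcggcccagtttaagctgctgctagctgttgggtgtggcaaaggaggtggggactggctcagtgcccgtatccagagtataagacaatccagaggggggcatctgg

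Promoter windows of 300 bases (250 before to 50 after the start) were found for 39 of the 50 genes, with 44 windows in all, and letters were searched on both strands. ACGTG was in 11.4% of the P450 windows and in 19.6% of all 32851 promoter windows. GCGTG, the dioxin response core, was in 34.1% and 32.4%, and TTCNNNGAA in 6.82% and 8.3%. The nuclear receptor motif AGGTCA was in 11.4% and 16.3%. A direct repeat of AGGTCA with 1 base between was in 0 P450 windows and 0.0396% of all. A match describes letters only.

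Both genes of the CYP2A pair were lower in VHL-KO;SETD2-KO. Cyp2a4, a steroid 15α-hydroxylase, had 276, 460.1 and 572 CPM in the VHL-KO libraries and 103, 30.02 and 149.9 CPM in the VHL-KO;SETD2-KO libraries. All VHL-KO;SETD2-KO libraries were below all VHL-KO libraries, and replicate 3 was far below the rest. Its log2 fold change was -2.21 (SE 0.65, adjusted p = 0.625, edgeR). Cyp2a5, a coumarin and nicotine hydroxylase, had 116, 116 and 170.2 CPM in the VHL-KO libraries and 31.8, 31.4 and 48.9 CPM in the VHL-KO;SETD2-KO libraries, with little spread inside either group and no overlap. Its log2 fold change was -1.84 (SE 0.42, adjusted p = 0.625, edgeR). Values without VHL-KO;SETD2-KO replicate 3 were -1.77 and -1.72. These are paralogs on chromosome 7 (chr7:26307192-26315088 and chr7:26835339-26843264), and 11.2% of the 100-base windows in Cyp2a4 transcripts and 12.1% of those in Cyp2a5 transcripts occur in another gene, mostly in the other of the pair, so reads there could be assigned to either.

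Their promoters are set side by side because both genes were lower without overlap. Over the 249 bases that align before the start, 245 are identical (98.4%) and 4 differ, and capitals mark the differing bases. The stretches are chr7:26306943-26307191 and chr7:26835089-26835337, both on the plus strand of GRCm38.p6 (RefSeq).
Cyp2a4: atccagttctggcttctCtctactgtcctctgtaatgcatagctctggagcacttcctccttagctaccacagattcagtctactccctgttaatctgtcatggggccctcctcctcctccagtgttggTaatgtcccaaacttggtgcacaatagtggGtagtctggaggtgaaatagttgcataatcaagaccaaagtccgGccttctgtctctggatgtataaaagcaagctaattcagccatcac
Cyp2a5: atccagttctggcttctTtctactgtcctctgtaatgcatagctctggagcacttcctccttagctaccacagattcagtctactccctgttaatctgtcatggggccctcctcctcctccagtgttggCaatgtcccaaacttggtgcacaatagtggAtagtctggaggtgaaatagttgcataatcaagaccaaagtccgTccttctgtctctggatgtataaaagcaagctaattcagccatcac

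The Cyp2d genes lie together on chromosome 15 (chr15:82370527-82794452, 5 of the 50 genes), and their values went in different directions. Cyp2d9, a testosterone 16α-hydroxylase, had 194, 254 and 735 CPM in the VHL-KO libraries and 55.7, 6.3 and 75.7 CPM in the VHL-KO;SETD2-KO libraries. Groups were separate, and VHL-KO;SETD2-KO replicate 3 was about an order of magnitude below the next lowest library. The log2 fold change of -3.1 (SE 0.94, adjusted p = 0.625, edgeR) was the most negative of the 39. It was -2.29 without VHL-KO replicate 4 and -1.77 without both doubtful libraries (adjusted p = 0.00597, edgeR), and 7.91% of the windows in Cyp2d9 transcripts occur in another gene, mostly Cyp2d10. Cyp2d12 had 199.9, 118 and 866 CPM in the VHL-KO libraries and 103, 152 and 165 CPM in the VHL-KO;SETD2-KO libraries, where VHL-KO replicate 4 alone set the VHL-KO mean apart. Its log2 fold change was -1.49 (SE 0.75, adjusted p = 0.625, edgeR) and moved to -0.19 without that library. Cyp2d26 had 74.2, 61.5 and 255 CPM in the VHL-KO libraries and 49.3, 297 and 45.6 CPM in the VHL-KO;SETD2-KO libraries, with 1 high library in each group, and its fitted value of 0.01 took either sign when a library was left out. Cyp2d22 had 16.3, 18.8 and 39.6 CPM in the VHL-KO libraries and 31.2, 52.8 and 30.2 CPM in the VHL-KO;SETD2-KO libraries. The groups overlapped only through VHL-KO replicate 4, and the log2 fold change was 0.61 with all libraries and 0.81 without both doubtful ones (adjusted p = 0.011, edgeR).

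**Figure D4:**
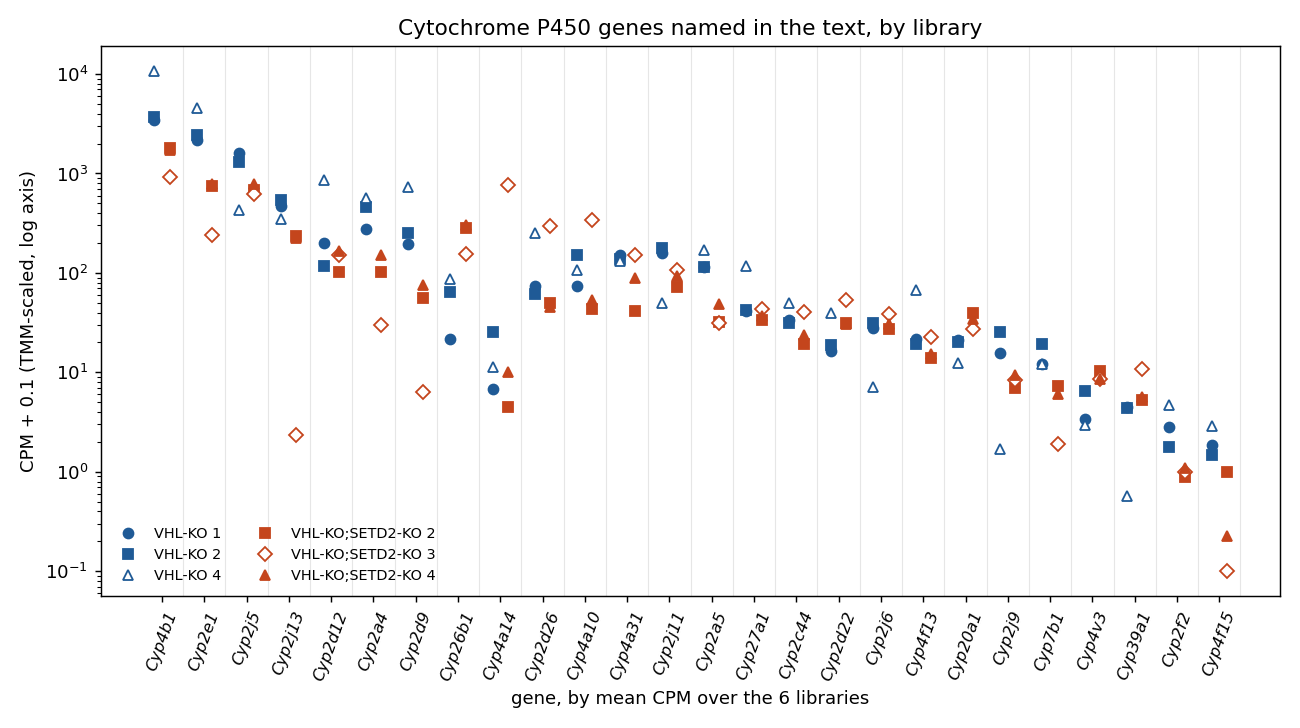
TMM-scaled CPM plus 0.1 on a log axis (y) for the 26 P450 genes named in the text by the naming rule (x, ordered by mean CPM), 1 point per library, VHL-KO in blue and VHL-KO;SETD2-KO in orange. Open symbols are VHL-KO replicate 4 and VHL-KO;SETD2-KO replicate 3, which lie at an extreme for many genes, such as Cyp2j13 at 2.25 CPM and Cyp4a14 at 768 CPM.

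Among the epoxygenases, which turn arachidonic acid into epoxyeicosatrienoic acids, Cyp2j5 was the most abundant. All 7 Cyp2j genes of the set lie within chr4:96042660-96664171. Cyp2j5 had 1623, 1317 and 433 CPM in the VHL-KO libraries and 685, 618 and 788 CPM in the VHL-KO;SETD2-KO libraries. VHL-KO replicate 4 was the lowest library of all here, so the groups overlapped. Its log2 fold change was -0.69 (SE 0.56, adjusted p = 0.695, edgeR), and without both doubtful libraries it was -0.997 (adjusted p = 0.00947, edgeR). Cyp2j11 had 159, 178 and 49.7 CPM in the VHL-KO libraries and 71.4, 107 and 93.8 CPM in the VHL-KO;SETD2-KO libraries, with a log2 fold change of -0.51. Cyp2j9 had 15.5, 25.3 and 1.59 CPM in the VHL-KO libraries and 6.9, 8.26 and 9.27 CPM in the VHL-KO;SETD2-KO libraries, with a log2 fold change of -0.80. VHL-KO replicate 4 was again the lowest library for both.

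Cyp2j13 was set apart in a single library. It had 473, 545 and 348 CPM in the VHL-KO libraries and 237, 2.25 and 226 CPM in the VHL-KO;SETD2-KO libraries. VHL-KO;SETD2-KO replicate 3 lay about 100 times below the next lowest library, and the other 5 libraries still separated by group. The fitted log2 fold change was -1.55 (SE 1.17, adjusted p = 0.676, edgeR) with all libraries, -0.97 without that library, and -1.14 without both doubtful libraries (adjusted p = 0.00597, edgeR). Cyp2j6 had 27.6, 31.1 and 7.1 CPM in the VHL-KO libraries and 26.9, 38.5 and 30.5 CPM in the VHL-KO;SETD2-KO libraries. Cyp2c44, an epoxygenase of the mouse kidney, had 33.2, 31.6 and 49.5 CPM in the VHL-KO libraries and 19.3, 39.97 and 23.5 CPM in the VHL-KO;SETD2-KO libraries. Both overlapped between groups, with log2 fold changes of 0.54 (SE 0.56, adjusted p = 0.752, edgeR) and -0.47 (SE 0.43, adjusted p = 0.729, edgeR).

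Cyp4a14 and Cyp4a10, fatty acid ω-hydroxylases of the CYP4A subfamily, were higher in a single library than in the others. Cyp4a14 had 6.78, 25.4 and 11.3 CPM in the VHL-KO libraries and 4.4, 768 and 9.89 CPM in the VHL-KO;SETD2-KO libraries. VHL-KO;SETD2-KO replicate 3 was 77.6 times the median of the others, and the other 5 libraries overlapped. The fitted log2 fold change was 4.17 (SE 1.77, adjusted p = 0.625, edgeR), the highest of the 39, and -1.01 without that library. Cyp4a10 had 73.4, 151 and 106 CPM in the VHL-KO libraries and 43.4, 338 and 53.7 CPM in the VHL-KO;SETD2-KO libraries, again with replicate 3 highest. Cyp4a31 had 151, 137 and 133 CPM in the VHL-KO libraries and 41.7, 151 and 89.1 CPM in the VHL-KO;SETD2-KO libraries. Their log2 fold changes were 0.40 and -0.58 with all libraries, and without both doubtful libraries -1.21 and -1.14 (adjusted p = 0.0413 and 0.0481, edgeR). Ppara, the receptor through which fibrates induce Cyp4a genes, had 115, 107 and 54.9 CPM in the VHL-KO libraries and 43.2, 163 and 67.00 CPM in the VHL-KO;SETD2-KO libraries and was also highest in VHL-KO;SETD2-KO replicate 3. The 4 Cyp4a genes of the set lie within chr4:115486200-115622507, and 12.2% of the windows in Cyp4a10 transcripts occur in Cyp4a32 or another gene.

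Cyp4a12a and Cyp4a12b fall outside the symbol rule and were read beside the set, since Cyp4a12a makes 20-hydroxyeicosatetraenoic acid in the male mouse kidney. Cyp4a12a had 574, 218 and 454 CPM in the VHL-KO libraries and 89.7, 8.43 and 194 CPM in the VHL-KO;SETD2-KO libraries. Groups were separate and VHL-KO;SETD2-KO replicate 3 was again lowest, with a fitted log2 fold change of -2.09 (SE 0.95, adjusted p = 0.625, edgeR), or -3.06 without VHL-KO;SETD2-KO replicate 4. Cyp4a12b was less abundant, at 7.93, 8.03 and 12.7 CPM in the VHL-KO libraries and 4.08, 1.74 and 4.51 CPM in the VHL-KO;SETD2-KO libraries, with a log2 fold change of -1.47 (SE 0.51, adjusted p = 0.625, edgeR).

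For 7 P450 genes known as male-biased in mouse kidney (Cyp2e1, Cyp4b1, Cyp2j13, Cyp7b1, Cyp2d9, Cyp4a12a and Cyp4a12b), the groups did not overlap in 7 of 7, all lower in VHL-KO;SETD2-KO, and 5 of 7 had an unadjusted p under 0.05 with a change of at least 1.5-fold. Of all genes, 11% were lower without overlap and 4.68% were lower by that p. The list was chosen with earlier results of these data known, so these counts hold for its 7 genes only. Other P450 genes were not checked for male bias. Among them, Cyp2j5 overlapped between groups and was lowest in VHL-KO replicate 4. VHL-KO;SETD2-KO replicate 3 was the lowest library for each of the 7 listed genes. Their sum was 6922, 7162 and 16847 CPM in the VHL-KO libraries and 2948, 1188 and 3035 CPM in the VHL-KO;SETD2-KO libraries, and the ratio of group means was 0.232 with all libraries, 0.29 without VHL-KO;SETD2-KO replicate 3 and 0.425 without both doubtful libraries. The median log2 fold change of the list was -2.0, and -1.54 without replicate 3. In CPM, the VHL-KO;SETD2-KO replicates 2 and 4, which had Y-linked counts, were thus also below the VHL-KO libraries for these genes. Per proximal marker CPM, Cyp2e1 and Cyp2d9 were still lower without overlap, and Cyp4b1, Cyp2j13 and Cyp7b1 overlapped. Cyp4a12a and Cyp4a12b were not taken on that scale. They are not fully separate genes here, since 35.8% and 36.2% of their transcript windows occur in another gene, mostly in the other of the pair. Cyp2a4 and Cyp4a14 had been entered as a female-biased list, a label that was not checked for kidney. This list of 2 genes summed to 283 to 584 CPM in VHL-KO and 108 to 798 CPM in VHL-KO;SETD2-KO. Its members differed in replicate 3, which was the lowest library for Cyp2a4 and the highest for Cyp4a14.

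Over the whole set, VHL-KO;SETD2-KO replicate 3 was more than 4-fold above the highest other library for 1 tested P450 gene (Cyp4a14), against 0.192% of all genes, and more than 4-fold below the lowest other library for 3 (Cyp2d9, Cyp2j13 and Cyp4f15), against 0.616%. For Cyp4f15 this compares 0 counts with 2 in VHL-KO;SETD2-KO replicate 4, under the 3 counts that a count of 0 allows. The tubular injury list (6 genes) summed to 1212 CPM in VHL-KO;SETD2-KO replicate 3 and to 77.8 to 251 CPM in the others. Spp1 alone, the gene of osteopontin, held 1198 CPM of that sum. Havcr1, the gene of kidney injury molecule 1, was at 0.393 CPM there, a low value shared by its whole group. It had 1.51, 1.94 and 1.21 CPM in the VHL-KO libraries and 0.159, 0.393 and 0.438 CPM in the VHL-KO;SETD2-KO libraries, without overlap. The part of sex, read from Xist, and of Spp1 in the P450 values of VHL-KO;SETD2-KO replicate 3 was not tested.

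**Figure D5:**
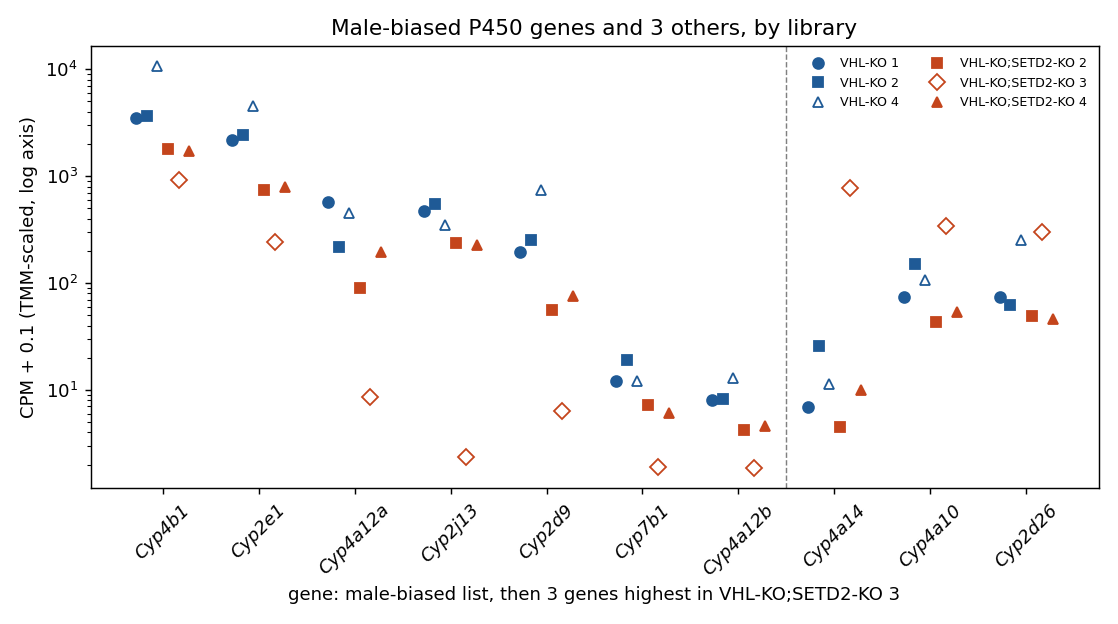
TMM-scaled CPM plus 0.1 on a log axis (y) for 7 male-biased P450 genes, left of the dashed line, and for Cyp4a14, Cyp4a10 and Cyp2d26, chosen after their values were seen (x), 1 point per library. The open diamond, VHL-KO;SETD2-KO replicate 3, is the lowest point for each of the 7 genes and the highest for the other 3.

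Among the genes of retinoid metabolism, Cyp26b1, which clears retinoic acid, was higher in VHL-KO;SETD2-KO (chr6:84571414-84593908, minus strand). It had 21.5, 64.8 and 87.8 CPM in the VHL-KO libraries and 284, 156 and 302 CPM in the VHL-KO;SETD2-KO libraries, or 58.1 ± 33.7 (SD, n = 3) against 247 ± 79.5 CPM (SD, n = 3). Every VHL-KO;SETD2-KO library was above every VHL-KO library. The log2 fold change was 2.09 (SE 0.60, adjusted p = 0.625, edgeR), 2.35 without VHL-KO;SETD2-KO replicate 3 and 2.78 without both doubtful libraries (adjusted p = 0.00979, edgeR). Its libraries with the highest levels, VHL-KO;SETD2-KO replicates 2 and 4, were those with the highest podocyte and endothelial sums, and the part of those cells in its level was not tested. Cyp26a1, the related retinoic acid hydroxylase, stayed between 0.626 and 1.21 CPM in every library, with a log2 fold change of -0.40.

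The sterol hydroxylases differed among themselves. Cyp7b1, an oxysterol 7α-hydroxylase, had 12.04, 19.02 and 12.04 CPM in the VHL-KO libraries and 7.16, 1.8 and 6.01 CPM in the VHL-KO;SETD2-KO libraries. The groups did not overlap, and the log2 fold change was -1.53 (SE 0.57, adjusted p = 0.625, edgeR). Cyp39a1, which hydroxylates 24-hydroxycholesterol, had 4.36, 4.25 and 0.467 CPM in the VHL-KO libraries and 5.14, 10.6 and 5.51 CPM in the VHL-KO;SETD2-KO libraries, higher in VHL-KO;SETD2-KO without overlap, with VHL-KO replicate 4 lowest. Its log2 fold change was 1.22 (SE 0.76, adjusted p = 0.629, edgeR), and 0.31 without both doubtful libraries. Cyp27a1, the mitochondrial sterol 27-hydroxylase, had 41.1, 42.1 and 116 CPM in the VHL-KO libraries and 33.7, 43.8 and 36.4 CPM in the VHL-KO;SETD2-KO libraries, where the groups overlapped and the log2 fold change of -0.81 (SE 0.51, adjusted p = 0.632, edgeR) went to -0.14 without VHL-KO replicate 4. Cyp51, the lanosterol demethylase of cholesterol synthesis, had 109, 210.4 and 55.2 CPM in the VHL-KO libraries and 63.9, 62.00 and 69.6 CPM in the VHL-KO;SETD2-KO libraries, with a log2 fold change of -0.94 (SE 0.53, adjusted p = 0.625, edgeR), or -0.33 without VHL-KO replicate 2.

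Smaller differences were found in less abundant genes. Cyp20a1, an orphan P450, had 21.1, 20.04 and 12.2 CPM in the VHL-KO libraries and 39.5, 26.9 and 34.2 CPM in the VHL-KO;SETD2-KO libraries, with no overlap and a log2 fold change of 0.91 (SE 0.40, adjusted p = 0.625, edgeR). Cyp4v3, the mouse counterpart of a fatty acid hydroxylase needed in the retina, had 3.33, 6.46 and 2.89 CPM in the VHL-KO libraries and 10.2, 8.54 and 8.58 CPM in the VHL-KO;SETD2-KO libraries, also with no overlap and a log2 fold change of 1.11 (SE 0.46, adjusted p = 0.625, edgeR). Both were higher in all VHL-KO;SETD2-KO libraries. Cyp2f2, which activates naphthalene, had 2.72, 1.66 and 4.57 CPM in the VHL-KO libraries and 0.796, 0.899 and 1.00 CPM in the VHL-KO;SETD2-KO libraries and a log2 fold change of -1.73 (SE 0.56, adjusted p = 0.625, edgeR). Cyp4f15 had 1.75, 1.39 and 2.8 CPM in the VHL-KO libraries and 0.902, 0 and 0.125 CPM in the VHL-KO;SETD2-KO libraries and a log2 fold change of -2.5 (SE 1.07, adjusted p = 0.625, edgeR), which rests on few reads and on a library at 0 and ran from -5.02 without VHL-KO;SETD2-KO replicate 2 to -1.91 without replicate 3. Cyp4f13, a leukotriene and fatty acid hydroxylase, had 21.4, 19.1 and 66.9 CPM in the VHL-KO libraries and 13.9, 22.4 and 15.2 CPM in the VHL-KO;SETD2-KO libraries, where the groups overlapped, and its log2 fold change was -1.06 (SE 0.57, adjusted p = 0.625, edgeR), or -0.24 without VHL-KO replicate 4.

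The remaining 13 tested genes (Cyp1b1, Cyp2c69, Cyp2j7, Cyp2r1, Cyp2s1, Cyp2u1, Cyp4a32, Cyp4f14, Cyp4f16, Cyp4f17, Cyp4f18, Cyp26a1 and Cyp46a1) had group means under 12 CPM and overlapping groups. Their log2 fold changes ran from -0.56 for Cyp4f14 to 1.12 for Cyp46a1, the brain cholesterol 24-hydroxylase, with SEs of 0.41 to 0.92. Cyp1a1 and Cyp2b10, the usual targets of the dioxin receptor Ahr and of the receptor CAR, were among the 11 genes too low to test. By family, sums over all members were lower in VHL-KO;SETD2-KO without overlap for family 2 (26 genes, 5396 to 8115 CPM in VHL-KO and 1648 to 2493 CPM in VHL-KO;SETD2-KO) and family 4 (13 genes, 3759.7 to 11085 CPM in VHL-KO and 1931 to 2239 CPM in VHL-KO;SETD2-KO), and higher without overlap for family 26 (2 genes, 22.6 to 89.1 CPM in VHL-KO and 157 to 303 CPM in VHL-KO;SETD2-KO). The family 4 sum was mostly Cyp4b1, with a mean of 5968 of 6297 CPM in VHL-KO. Subfamily 4a (4 genes) summed to 232 to 316 CPM in VHL-KO and 89.9 to 1259 CPM in VHL-KO;SETD2-KO, with overlap. Subfamily 4f (7 genes) also overlapped, at 36.3 to 100 CPM in VHL-KO and 31.0 to 44.3 CPM in VHL-KO;SETD2-KO. Among families with a single member, family 7 (Cyp7b1) was lower and families 20 (Cyp20a1) and 39 (Cyp39a1) were higher without overlap, and the other families overlapped.

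The vitamin D enzymes left out of the set were read for completeness. Cyp24a1, which inactivates calcitriol, had 228, 40.6 and 111 CPM in the VHL-KO libraries and 35.1, 37.2 and 61.6 CPM in the VHL-KO;SETD2-KO libraries. Cyp27b1, which makes it, had 3.45, 9.88 and 20.4 CPM in the VHL-KO libraries and 6.63, 17.5 and 3.76 CPM in the VHL-KO;SETD2-KO libraries. The groups overlapped for both, with log2 fold changes of -1.5 (SE 0.64, adjusted p = 0.625, edgeR) and -0.27 (SE 0.76, adjusted p = 0.907, edgeR). The value of Cyp24a1 was -0.75 without VHL-KO replicate 1, and that of Cyp27b1 was 0.50 without VHL-KO replicate 4.

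Transcripts of several proteins that serve P450 enzymes were lower as well. Por, the reductase that passes electrons to most P450 enzymes of the endoplasmic reticulum, had 248, 247 and 1128 CPM in the VHL-KO libraries and 135, 153 and 147 CPM in the VHL-KO;SETD2-KO libraries. The groups did not overlap, VHL-KO replicate 4 was far above the rest, and the log2 fold change was -1.9 (SE 0.67, adjusted p = 0.625, edgeR), -0.77 without that library and -0.81 without both doubtful libraries (adjusted p = 0.00727, edgeR). Cyb5a, cytochrome b5, had 739, 619 and 679 CPM in the VHL-KO libraries and 383, 289 and 347 CPM in the VHL-KO;SETD2-KO libraries, with no overlap and a log2 fold change of -0.998 (SE 0.40, adjusted p = 0.625, edgeR). Fdx1, the ferredoxin of mitochondrial P450 enzymes, had 47.02, 47.3 and 50.2 CPM in the VHL-KO libraries and 24.9, 30.6 and 30.5 CPM in the VHL-KO;SETD2-KO libraries, again with no overlap, and a log2 fold change of -0.75 (SE 0.35, adjusted p = 0.625, edgeR). Fdxr, its reductase, had 5.69, 7.39 and 31.1 CPM in the VHL-KO libraries and 6.42, 17.8 and 6.01 CPM in the VHL-KO;SETD2-KO libraries, where the groups overlapped.

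The other tested electron donors and adaptors overlapped between groups. Their log2 fold changes were -0.12 for Cyb5b, -0.89 for Cyb5r3, 0.001 for Cyb5r1, -0.55 for Fdxr, 0.75 for Pgrmc1 and 0.19 for Pgrmc2. Of the 9 electron donors tested (10 in the list), 2 were lower and 0 higher at an unadjusted p under 0.05 with a change of at least 1.5-fold, against 4.68% and 2.66% of all genes, and 0 passed at an adjusted p. The median log2 fold change of the list was -0.55, and -0.026 without VHL-KO replicate 4, where Cyb5r3 was at -0.026 and Fdxr at 0.62.

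Heme synthesis, which supplies the P450 cofactor, was fitted lower in 8 of 8 genes, against 7237 of all 14611 genes tested. The median of the list was -0.82, and -0.47 without VHL-KO replicate 4. At an unadjusted p under 0.05, 1 of the 8 was lower, against 4.68% of all genes. Alas1, the rate-limiting enzyme, had 112, 183 and 293 CPM in the VHL-KO libraries and 58.8, 113 and 93.3 CPM in the VHL-KO;SETD2-KO libraries with overlapping groups and a log2 fold change of -1.15 (SE 0.50, adjusted p = 0.625, edgeR). Of 14 regulators tested (17 in the list), 4 were lower at an unadjusted p under 0.05 and 0 higher, against 4.68% and 2.66% of all genes. They included Hnf4a at -1.04 and the oxysterol receptor gene Nr1h3 at -1.53, which was at -0.54 without VHL-KO replicate 4. The groups did not overlap for 5 regulators that were lower and 2 that were higher, against 11% and 9.62% of all genes. The higher ones were Ahr at 1.26 and Epas1, the gene of hypoxia-inducible factor 2α, at 1.16. Hnf4a is also 1 of the 15 proximal tubule markers.

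Downstream of the epoxygenases, Ephx2, the soluble epoxide hydrolase, had 423, 399 and 1094 CPM in the VHL-KO libraries and 164, 162 and 193 CPM in the VHL-KO;SETD2-KO libraries. The groups did not overlap, and the log2 fold change was -1.88 (SE 0.53, adjusted p = 0.625, edgeR), or -1.25 without VHL-KO replicate 4. It was the 1 gene of 7 tested in the list of epoxide hydrolases and eicosanoid partners to pass an unadjusted p of 0.05, and the median of that list was -0.16, and 0.80 without VHL-KO replicate 4. Over the 4 lists of partner genes, 38 genes were tested, 8 were lower and 0 higher at an unadjusted p under 0.05, against the same backgrounds of 4.68% and 2.66%, and 0 passed at an adjusted p.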

How the data were processed

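Counts for 3 PTEC libraries of each genotype were read from the table of raw gene counts deposited by the authors. The submitters' processing notes name HISAT2 2.0.4 and the GRCm38 build; the counting tool and annotation are not given in the sources used here. No normalization had been applied to the deposited counts. Libraries were grouped by their genotype labels.

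Counts of all genes were tested with edgeR 4.0.16 (R 4.3.3; filterByExpr, TMM factors, quasi-likelihood F test, Benjamini-Hochberg adjustment over 14611 genes), which took the place of the study's DESeq2 as the main test. A call needed p under 0.05 and a 1.5-fold change. DESeq2 1.42.0, limma-voom 3.58.1, other filters and scalings, and fits without single libraries were alternatives. The test was checked on simulated data. P450 genes and all gene lists were chosen with earlier results of these data known. Genes were named if tested and over 10 CPM on average, if their unadjusted p was under 0.05, or if among the 4 highest or 4 lowest log2 fold changes over 1 CPM; partner genes were the electron donors and any other with p under 0.05, with Ppara, Alas1, Ahr, Epas1, Spp1, Havcr1, Cyp2d10, Cyp1a1 and Cyp2b10 added after their values were seen. At these depths 3 counts, the limit that a count of 0 allows, correspond to 0.168 to 0.269 CPM before TMM scaling, for counting error only. Cyp2c44 was matched to RefSeq through its synonym.

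Some genes of the partner lists count in the list totals but are not reported here by name, and 1 searched promoter motif is likewise left out. Shared reads between paralogs were estimated as the share of 100-base transcript windows (GENCODE vM21) found in another gene.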

Additional observations from a re-analysis of the deposited data

Results flagged for a closer look

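Of 32 rows of P450 pseudogenes, which are outside the comparisons above, 3 held more counts in a VHL-KO;SETD2-KO library than in any VHL-KO library. Cyp2c52-ps had 11 counts in VHL-KO;SETD2-KO replicate 3 and 0 in every other library. Cyp2d33-ps had 108 counts in VHL-KO;SETD2-KO replicate 4 against at most 71 in a VHL-KO library. Cyp2j14-ps had 4 counts in VHL-KO;SETD2-KO replicate 3, 1 in replicate 2 and 0 in the VHL-KO libraries. The differences were not tested, and reads of pseudogenes can come from their parent genes.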

How the results depend on the processing

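With 6 libraries, 0 P450 genes were called higher or lower at an adjusted p under 0.05 in edgeR. DESeq2 called 1 higher and 4 lower, DESeq2 without VHL-KO replicate 4 called 2 and 7, and edgeR without VHL-KO replicate 4 and VHL-KO;SETD2-KO replicate 3 called 3 and 13; of all genes DESeq2 called 1 higher and 50 lower, and edgeR without both libraries 1311 and 1164. At an unadjusted p the 4 higher calls became 2 in DESeq2, 7 in DESeq2 without VHL-KO replicate 4, and 1 to 5 with each library left out, and the 8 lower calls became 16 without both libraries and 6 to 11 with each library left out. Partner genes went from 0 higher and 8 lower to 1 higher in DESeq2, in limma-voom and without a filter, 5 higher in DESeq2 without VHL-KO replicate 4, 6 higher and 14 lower without both libraries, and 0 to 5 higher and 1 to 10 lower with each library left out (1, 1 and 2 lower without VHL-KO;SETD2-KO replicates 2, 3 and 4, and 5 higher without VHL-KO replicate 4). At an adjusted p, partner genes called went from 0 to 1 lower in DESeq2, 2 higher and 9 lower in DESeq2 without VHL-KO replicate 4, and 4 higher and 12 lower without both libraries.

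The median log2 fold change of the P450 genes, -0.40, ran from -0.81 to -0.19 with each library left out, the lower end without VHL-KO;SETD2-KO replicate 3. Genes without overlap went from 4 to at most 7 higher (without VHL-KO replicate 4) and never under 4, and from 9 lower to between 9 and 16 (without VHL-KO;SETD2-KO replicate 3). The summed log2 ratio, -1.52, ran from -1.70 to -1.09 with each library left out and was -0.22 per proximal marker CPM, a scaling chosen after seeing the data. It ran from -1.89 to -0.94 for family 4, from -1.06 to -0.13 for family 27 and from 0.40 to 2.70 for family 46, the last value of each range (and -1.09) coming without VHL-KO replicate 4.

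The replicate numbers were not used to pair libraries in the main test. Deviations from group means correlated at 0.164 for number 2 and -0.326 for number 4. Only these numbers occur in both groups, so the values cannot decide whether the libraries were paired. With the replicate block, calls at an unadjusted p were 0 higher and 1 lower for P450 genes and 1 higher and 1 lower for partner genes, and the median was -0.76. Over 49 named genes (Setd2 included) and 729 refits, the direction was kept in 37 genes throughout and turned in 12. Cyp2d26 (0.0077) became -0.031 with RLE factors, -0.031 in DESeq2, -0.27 in limma-voom, -1.40 with the replicate block, -1.44 to 0.94 with each library left out (lowest without VHL-KO;SETD2-KO replicate 3), and -0.52 without both libraries. Cyp4a10 (0.39) became -0.20 in limma-voom, -1.39 with the replicate block, -1.17 to 0.84 with each library left out and -1.21 without both. Cyp4a14 (4.17) became -1.36 with the block, -1.01 to 4.87 with each library left out and -1.16 without both (for both genes lowest without VHL-KO;SETD2-KO replicate 3). Cyp2j6 (0.54) became -0.029 without both, and Cyp2j9 (-0.80) became 0.26 with the block. Without VHL-KO replicate 4, edgeR and DESeq2 gave 0.16 and 0.14 for Cyp4f14 (-0.56), 0.50 and 0.48 for Cyp27b1 (-0.27), and 0.62 and 0.62 for Fdxr (-0.55), whose lowest values of -1.16, -1.09 and -1.22 came without VHL-KO;SETD2-KO replicate 3. Cyb5r3 (-0.89) became 0.055 without both libraries and ran from -1.18 to -0.026 with each left out. Cyb5b (-0.12) became 0.033 in limma-voom, 0.52 with the block and -0.49 to 0.21 with each library left out. Cyb5r1 (0.0013) became -0.040 with RLE factors, -0.039 in DESeq2, -0.30 with the block and -0.20 to 0.37 with each library left out. Ppara (-0.017) became 0.013 without a filter, 0.011 with at least 10 counts in every library, 0.00091 with library sizes that left out the 20 highest genes, and -0.74 to 0.32 with each library left out. The cause of these changes was not tested. With 3 libraries a group, depth was not the limit for the abundant genes; Cyp4f15, Cyp2c69 and Cyp46a1 rest on few reads.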
